A study of Mus musculus with 10 samples.

Results

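Serpins, kallikrein-related peptidases and Kazal-type inhibitors were followed in RNA-seq of mouse skin in the MC903 dermatitis model. Members were all genes of the deposited table whose symbol is Serpin followed by a letter and a number, Klk followed by a number, or Spink followed by a number. The rule used names and no measured value. It found 85 of 19175 genes, made up of 24 Serpina, 26 Serpinb and 11 other serpin genes, 13 Klk genes and 11 Spink genes. Skin came from C57BL/6 mice whose basophils carry a conditional knockout of VAMP7 (CKO, n = 5) or from floxed mice as the controls (Flox, n = 5). MC903 (calcipotriol) is an analogue of vitamin D that provokes type 2 dermatitis when applied to mouse skin, and the title of the series places all samples in that model, so its own effect cannot be read here. VAMP7 is a vesicle SNARE protein used in secretion. Information on the Cre driver, sex, age, MC903 dose and sampling time was not given in the sources used here. In the series, the design text states a total that differs from the 10 samples labelled, though it also names 5 of each kind, and the labels were followed. None of the labels says that the numbered samples are different animals. The p-values therefore speak only for the spread among these 10 samples, and that spread may be technical.

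Kallikreins are secreted serine proteases. In the upper epidermis they cut the corneodesmosomes that hold dead keratinocytes together, and they activate one another and other substrates. Kazal-type inhibitors are small secreted proteins that plug the active site of such proteases. LEKTI, the product of Spink5, holds epidermal kallikreins in check, and its loss causes Netherton syndrome in humans. Serpins work another way: the protease cuts an exposed loop of the serpin and is trapped by it. Serpina, Serpine, Serpinf and Serping proteins are mostly secreted, and Serpinb proteins mostly stay inside cells. A few serpins inhibit no protease, among them the collagen chaperone of Serpinh1.

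Values are FPKM, reads scaled to gene length and to the library's mapped reads, which allows levels of different genes to be compared per length. Library totals were 525369 to 581022 FPKM, and the read depth is unknown. Vamp7 levels were 17.3 to 19.2 FPKM in CKO libraries and 18.1 to 22.5 FPKM in Flox libraries. Whole skin holds many cells other than basophils that express it, so these values do not check a label. Keratinocyte markers fitted the labelled tissue. Levels of Krt14 were 2995 to 3940 FPKM in CKO and 2939 to 4163 FPKM in Flox libraries, and Krt5 at 678.0 to 1026 FPKM in CKO and 669 to 930 FPKM in Flox libraries. CKO replicate 1 stood apart. Its array quality weight in limma was 0.272, against 0.561 to 2.12 in the other libraries. Its 19 skeletal muscle markers summed to 1658 FPKM, against 424 to 1038 FPKM in the other CKO and 275 to 489.8 FPKM in the Flox libraries. The muscle list differed between the groups as well. All 17 tested markers had a positive log2 fold change of CKO over Flox (median 0.89). Limma called 0 of them, and 16 were higher at an unadjusted p under 0.05, against 4.78% of all genes. The part of muscle content in the levels of the members was not tested.

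Of the 85 members, 43 reached 1 FPKM in 5 or more libraries and were tested, and 40 of these reached it in all 10. They were 8 Serpina, 16 Serpinb, 5 other serpin, 11 Klk and 3 Spink genes. No member passed this filter through one group alone. The 42 members that were not tested stayed at or under 1.99 FPKM in every library, the value of Serpinb3d in its highest library. None of the 85 was 0 in every library. Among the tested members 34 averaged at least 10 FPKM over the 10 libraries and 13 at least 100 FPKM. Klk7 was the most abundant at 441 FPKM, then Klk6 at 326, Serpinb6a at 299.6, Serpina3n at 201, Serping1 at 183 and Klk8 at 151 FPKM. Serpinb2 at 136, Serpinh1 at 134, Spink5 at 127, Klk13 at 127 and Serpinf1 at 124 FPKM came next, and neighbours in this order from Serpinb2 on differed by less than their SD within a group. Klk7 was above Klk6 in all 10 libraries. All members together made up 0.543% ± 0.0371 of the FPKM total in CKO and 0.574% ± 0.0413 in Flox libraries (SD, n = 5 each).

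No member passed the test between CKO and Flox skin. The test was limma-trend on log2(FPKM + 1) over 13186 genes, two-sided, with adjusted p under 0.05, and it called 0 of 43 members in either direction. Of all genes it called 0.0455% as higher and 0.0607% as lower in CKO. At an unadjusted p under 0.05, 4 members were higher and 4 lower in CKO, against 4.78% of all genes higher and 10.3% lower. These 8 members are 18.6% of those tested, near the 15.1% of all genes. For 0 of 43 members did the groups not overlap, against 1.24% of all genes that were higher in every CKO library and 3.0% that were lower. Of the members, 21 had a positive and 22 a negative log2 fold change (CKO over Flox, from log2(FPKM + 1), where the added 1 shrinks the changes of low genes), and 39.5% of all genes had a positive one. The lowest adjusted p of a member was 0.148, that of Serpinb6d. The families differed in their medians, which were 0.40 for 8 Serpina, -0.010 for 16 Serpinb, 0.031 for 5 other serpin, -0.069 for 11 Klk and -0.26 for 3 Spink genes, against -0.027 for all genes. These medians are descriptions with no test, and they rest on the filter. Over all members, low ones included, they were 0.018 for 24 Serpina, 0.0033 for 26 Serpinb, -0.018 for 11 other serpin, -0.045 for 13 Klk and 0.032 for 11 Spink genes, against -0.012 for all genes above 0 in any library.

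**Figure D1:**
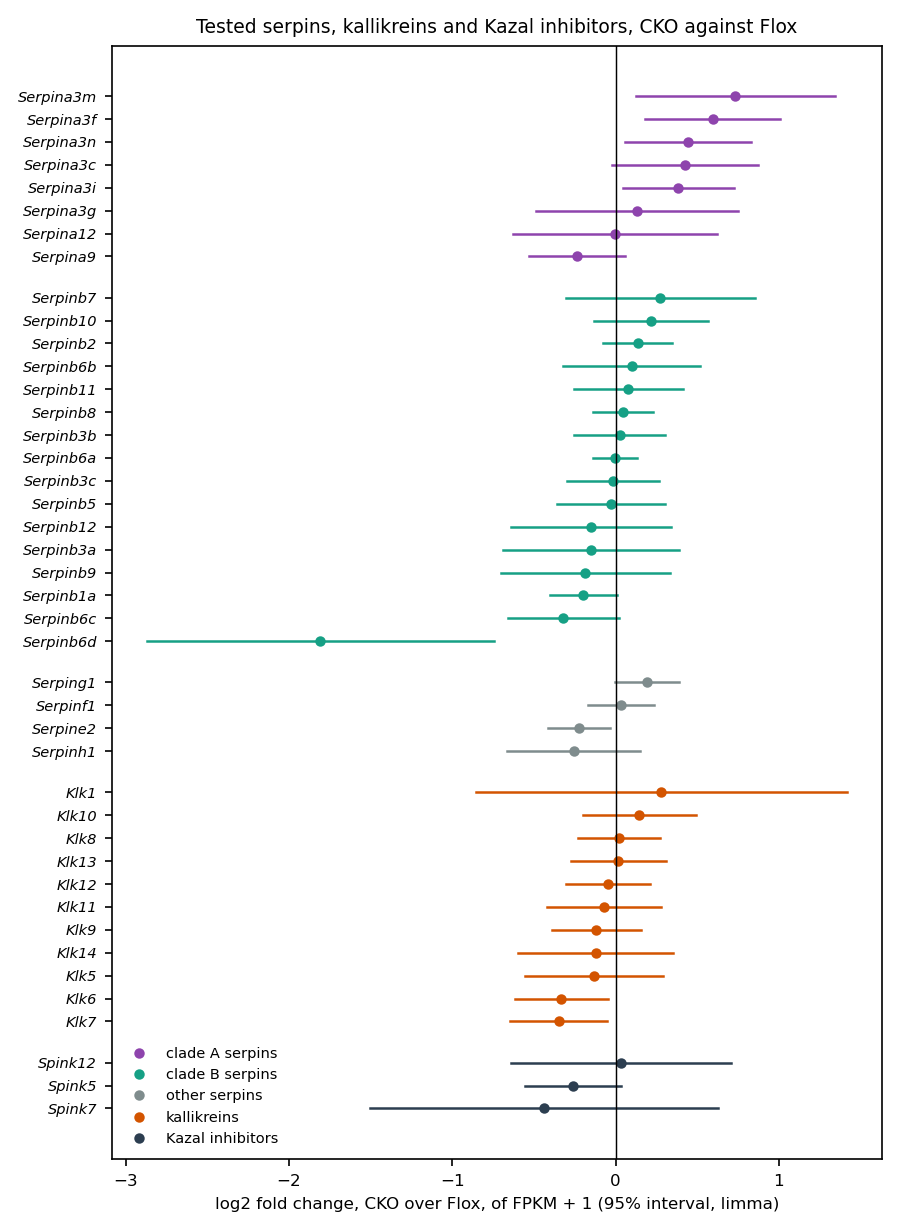
Log2 fold change (CKO against Flox, log2(FPKM + 1) scale) of 42 of the 43 tested members, grouped by family, with bars for the 95% interval of limma. Serpinb6d has the most negative value at -1.81, the Serpina3 genes lie to the right of 0, and Klk6, Klk7 and Spink5 lie to the left of 0.

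The epidermal kallikreins were among the most abundant members. Klk6, whose protease cuts several extracellular proteins, was at 271, 291, 308, 247 and 317 FPKM in CKO and at 447, 398, 388, 272 and 320.4 FPKM in Flox libraries. Flox replicate 4 was the one Flox library within the CKO range, and the other 4 were above every CKO library. Its mean was 287 ± 28.2 FPKM in CKO and 365 ± 68.9 FPKM in Flox, 1.27-fold lower, with a log2 fold change of -0.33 (SE 0.13, 95% interval -0.62 to -0.04, limma adjusted p = 0.273). Klk7, a chymotrypsin-like protease of the stratum corneum that cuts corneodesmosomes, was at 432, 349.5, 339.95, 371 and 441 FPKM in CKO and at 575, 565, 547, 382 and 412 FPKM in Flox libraries. Flox replicates 1 to 3 were above all CKO libraries, and Flox replicates 4 and 5 overlapped with CKO. The mean was 387 ± 46.9 FPKM in CKO and 496 ± 91.9 FPKM in Flox, 1.28-fold lower (log2 fold change -0.35, SE 0.13, limma adjusted p = 0.271).

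Spink5, the gene of LEKTI, was at 132, 112, 94.6, 106 and 133 FPKM in CKO and at 168, 155, 145, 116 and 112 FPKM in Flox libraries. Here too Flox replicates 1 to 3 were above all CKO libraries and replicates 4 and 5 were not. The mean was 116 ± 16.6 FPKM in CKO and 139 ± 24.7 FPKM in Flox (log2 fold change -0.26, SE 0.13, 95% interval -0.56 to 0.04, limma adjusted p = 0.391). Klk5, the trypsin-like kallikrein that activates the Klk7 zymogen, averaged 17.99 ± 4.90 FPKM in CKO and 19.5 ± 4.16 FPKM in Flox, with overlapping groups (log2 fold change -0.13, 95% interval -0.55 to 0.29, limma adjusted p = 0.804). Klk14, the third kallikrein known to act on corneodesmosomes, was low, at 0.886 ± 0.581 FPKM in CKO and 0.988 ± 0.327 FPKM in Flox. The summed level of Klk5 and Klk7 over that of Spink5, proteases over their inhibitor, was 3.51 ± 0.181 in CKO and 3.71 ± 0.201 in Flox libraries, with overlap.

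Klk8, Klk9, Klk10 and Klk13 were also abundant, and their group means lay closer together than those of Klk6 and Klk7. Klk8, a protease known from epidermal shedding and repair, was at 154, 164, 154, 123 and 163 FPKM in CKO and at 170.4, 163.5, 165, 123 and 129 FPKM in Flox libraries. The groups overlapped throughout (log2 fold change 0.02, 95% interval -0.23 to 0.27, limma adjusted p = 0.963). Klk13 averaged 127 ± 13.3 FPKM in CKO and 127 ± 24.2 FPKM in Flox, Klk9 113 ± 11.3 FPKM in CKO and 124 ± 23.2 FPKM in Flox, and Klk10 105 ± 18.02 FPKM in CKO and 95.2 ± 18.3 FPKM in Flox. For Klk10 the 95% interval of the log2 fold change was -0.20 to 0.49 (limma adjusted p = 0.714). Klk1, the tissue kallikrein that releases kinins, varied more between libraries, at 4.27 to 50.5 FPKM in CKO and 8.90 to 21.4 FPKM in Flox. Its mean was 24.9 ± 17.2 FPKM in CKO and 16.4 ± 4.73 FPKM in Flox, 1.52-fold higher (log2 fold change 0.28, 95% interval -0.86 to 1.42, limma adjusted p = 0.849). That log2 fold change was 0.77 without CKO replicate 1, -0.054 without CKO replicate 2 and 0.092 without Flox replicate 5. It shared 24.0% of its 50-base windows with other genes, most with Klk1b5, so its value depends on how such reads were assigned. In the GENCODE M21 transcripts, Klk5 to Klk13 and Spink5 shared no such window with another gene. Klk4 and Klk15 were at or under 0.16 FPKM in every library.

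**Figure D2:**
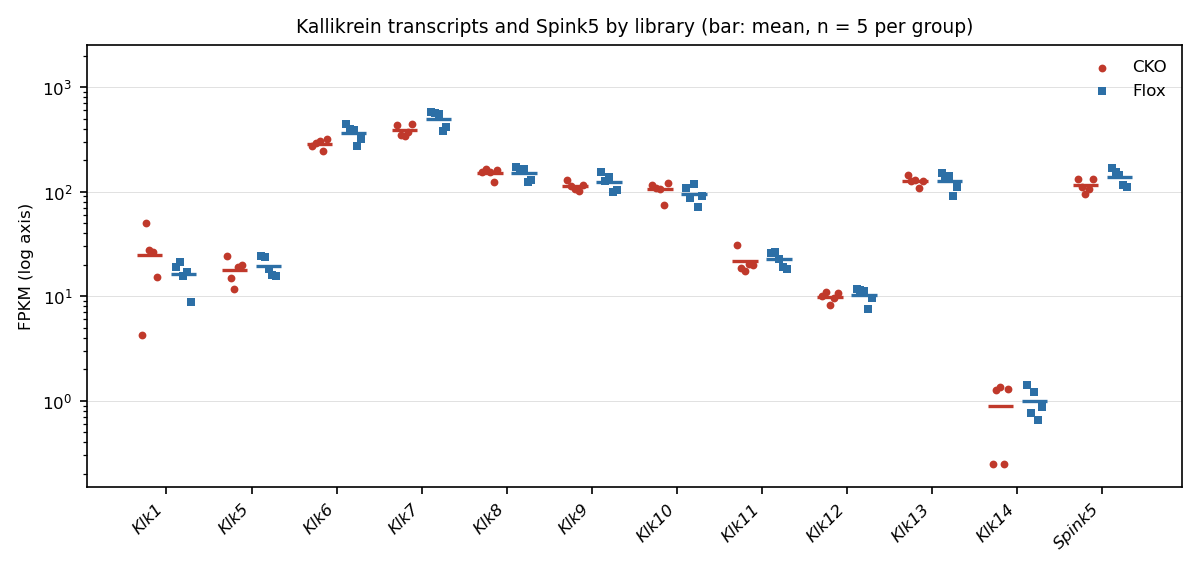
FPKM (log axis) of tested kallikreins and Spink5 in each library, CKO points left of Flox points, bars at the mean. Klk7 and Klk6 are highest, and 4 Flox libraries for Klk6 and 3 for Klk7 and Spink5 lie above all CKO libraries.

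The summed kallikrein level split the Flox libraries. The 13 Klk genes summed to 1102 to 1350.4 FPKM in CKO libraries. In Flox the sum was 1565 to 1687 FPKM in replicates 1 to 3, and 1098 and 1221 FPKM in replicates 4 and 5. Keratinocyte markers moved with it in part. Their 12 genes summed to 10452, 8446, 7750, 10161 and 9891 FPKM in CKO and to 10205, 10588, 9078, 7549 and 8635 FPKM in Flox libraries, with the lowest Flox values in replicates 4 and 5. In bulk tissue, fewer cells of a type and less RNA per cell cannot be told apart, and the part of the keratinocyte share in these sums was not tested.

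A ratio within a library cancels its scaling, and cancels what the genes share only as far as both respond alike. It also carries the variation of the gene used as denominator. Klk8 was taken as the denominator after the values were seen, as an abundant gene with near equal group means. The ratio of Klk6 to Klk8 was 1.76, 1.78, 2.005, 2.006 and 1.95 in CKO and 2.62, 2.44, 2.34, 2.21 and 2.49 in Flox libraries. Every CKO library was below every Flox library. Klk7 over Klk8 was 2.80, 2.14, 2.21, 3.01 and 2.71 in CKO and 3.37, 3.46, 3.31, 3.10 and 3.21 in Flox libraries, again with no overlap. Spink5 over Klk8 was 0.853, 0.683, 0.616, 0.864 and 0.818 in CKO and 0.989, 0.949, 0.874, 0.942 and 0.868 in Flox libraries, and the nearest values of the groups were 0.864 and 0.868. Of 42 other tested members, these 3 were the ones whose ratio to Klk8 did not overlap, all lower in CKO. Of all tested genes 0.538% were lower in CKO without overlap by the same ratio. Over all 66 pairs of the 11 tested kallikreins and Spink5, the ratios of 6 pairs did not overlap between groups. Of all pairs of tested genes above 0 in every library, 4.22% did not overlap. The 6 pairs set Klk6 against Klk8, Klk10 and Klk13, Klk7 against Klk8 and Klk13, and Spink5 against Klk8. They share genes, so they are not separate observations. Because the denominator was chosen on these values, the ratios are descriptions and carry no test. Klk6, Klk7 and Klk8 are neighbours on chromosome 7 in the RefSeq gene table of GRCm38.p6, and Spink5 is on chromosome 18.

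**Figure D3:**
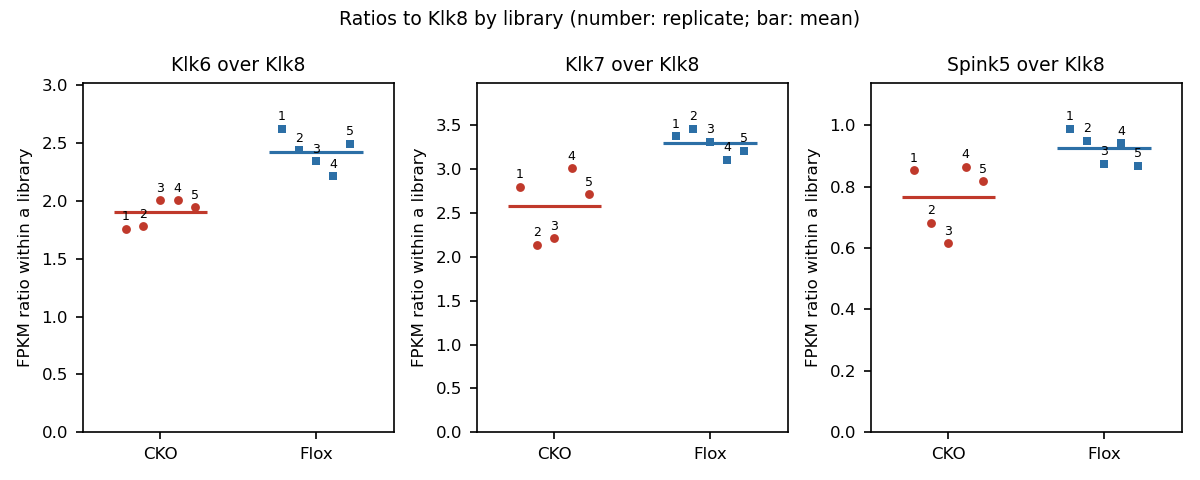
FPKM of Klk6, Klk7 and Spink5 divided by that of Klk8 in the same library, CKO left of Flox, numbered by replicate with bars at the mean. The groups do not overlap for any of the 3 ratios, and the gap is narrowest for Spink5.

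The other Kazal-type genes were low or uneven. Spink12 averaged 15.9 ± 6.01 FPKM in CKO and 15.6 ± 6.33 FPKM in Flox. Spink7, an inhibitor known from human oesophageal epithelium, was at 7.56, 2.80, 5.62, 7.38 and 30.5 FPKM in CKO and at 14.2, 13.6, 8.71, 15.97 and 6.12 FPKM in Flox libraries, with CKO replicate 5 far above its group (log2 fold change -0.44, 95% interval -1.50 to 0.63, limma adjusted p = 0.724). Its log2 fold change was -0.89 without CKO replicate 5 and -0.13 without CKO replicate 2. Spink6, a kallikrein inhibitor of human skin, was below the filter, at 0.666 ± 0.154 FPKM in CKO and 1.16 ± 0.462 FPKM in Flox. The other 7 Spink genes did not exceed 1.18 FPKM in any library.

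The tested Serpina3 genes all had higher means in CKO skin, without passing the test. Humans have a single SERPINA3, whose product alpha-1-antichymotrypsin is an acute phase protein that inhibits cathepsin G, and mice carry a cluster of copies. All 6 tested copies, Serpina3c, Serpina3f, Serpina3g, Serpina3i, Serpina3m and Serpina3n, had a positive log2 fold change, of 0.13 to 0.73, against 39.5% of all genes with a positive one. At an unadjusted p under 0.05 were 4 of the 6, against 4.78% of all genes higher. With the replicate number as a block, Serpina3i and Serpina3n were no longer under it, and with array quality weights Serpina3m was not. With some single libraries left out, Serpina3i, Serpina3m or Serpina3n was not under it either, while Serpina3f was under it in every setting. The copies are related neighbours that share sequence, and Serpina3c was added after its values were seen. These shares are therefore descriptions and carry no test. The other 2 tested Serpina genes were negative. They were Serpina9, at 50.7 ± 8.64 FPKM in CKO and 59.996 ± 9.60 FPKM in Flox (log2 fold change -0.24, SE 0.13), and Serpina12, the gene of the Klk7 inhibitor vaspin, at 12.4 ± 6.03 FPKM in CKO and 11.8 ± 3.34 FPKM in Flox (log2 fold change -0.0022, 95% interval -0.63 to 0.62).

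The 5 of these 6 copies that have an entry in the RefSeq promoter table (GRCm38.p6) lie on chromosome 12, in the order Serpina3c, Serpina3f, Serpina3g, Serpina3i and Serpina3n, with untested Serpina3j and Serpina3k and tested Serpina3m before the last. Their 250 bases before the start of transcription are shown 5′ to 3′ on the strand of the gene, because these genes had fold changes of one sign. For Serpina3f the promoter table lists 2 starts, and the first listed was used. Capitals mark matches, on either strand, to 4 motifs. They are TTCNNNGAA (bound by STAT factors), ACANNNTGT, GAAANNGAA (the core of an interferon response element) and TATAAA (the letters of a TATA box). ACANNNTGT holds only the inner bases of paired glucocorticoid receptor half-sites, so a match need not be a full site. A search for the AP-1 site, TGANTCA, found no match in these stretches.
Serpina3c, chr12:104153873-104154122, minus strand: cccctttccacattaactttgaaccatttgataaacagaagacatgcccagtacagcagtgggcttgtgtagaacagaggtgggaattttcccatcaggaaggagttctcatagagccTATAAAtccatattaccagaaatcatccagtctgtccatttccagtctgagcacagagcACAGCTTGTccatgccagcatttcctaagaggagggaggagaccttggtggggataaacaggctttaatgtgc
Serpina3f, chr12:104214294-104214543, plus strand: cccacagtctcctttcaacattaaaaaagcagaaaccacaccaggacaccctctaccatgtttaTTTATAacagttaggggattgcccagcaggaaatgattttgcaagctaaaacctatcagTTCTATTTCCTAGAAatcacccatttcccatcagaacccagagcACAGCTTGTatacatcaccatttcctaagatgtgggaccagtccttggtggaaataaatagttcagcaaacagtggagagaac
Serpina3g, chr12:104235897-104236146, plus strand: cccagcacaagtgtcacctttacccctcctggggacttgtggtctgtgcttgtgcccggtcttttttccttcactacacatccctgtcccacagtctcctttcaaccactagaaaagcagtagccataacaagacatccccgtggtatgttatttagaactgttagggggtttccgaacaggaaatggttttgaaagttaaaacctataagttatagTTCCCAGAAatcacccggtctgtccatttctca
Serpina3i, chr12:104262872-104263121, plus strand: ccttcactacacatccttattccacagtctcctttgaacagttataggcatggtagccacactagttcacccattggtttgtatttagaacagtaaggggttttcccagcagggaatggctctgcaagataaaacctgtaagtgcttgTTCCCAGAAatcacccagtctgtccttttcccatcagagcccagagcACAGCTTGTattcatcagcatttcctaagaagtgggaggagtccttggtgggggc
Serpina3n, chr12:104406458-104406707, plus strand: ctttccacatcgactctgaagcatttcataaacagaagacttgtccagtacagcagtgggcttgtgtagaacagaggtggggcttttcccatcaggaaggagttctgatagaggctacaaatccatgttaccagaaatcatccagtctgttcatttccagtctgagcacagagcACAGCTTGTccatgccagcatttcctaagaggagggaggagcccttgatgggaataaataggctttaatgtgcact

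The Serpina3c and Serpina3n stretches were 90.5% identical over their alignment, and the other pairs 39.5% to 65.9%. ACAGCTTGT stands in 4 of the 5 stretches, 73 bases before the start in Serpina3c, 83 in Serpina3f, 55 in Serpina3i and 76 in Serpina3n, and not in Serpina3g. ACANNNTGT was found in 5.84% of the 32841 promoters of the table and in 6 of the 35 tested members with an entry, these 4 included. Related copies are not separate cases, so the member counts are descriptions and carry no test. TTCCCAGAA stands in Serpina3g and Serpina3i and TTCCTAGAA in Serpina3f. TTCNNNGAA was found in 7.02% of promoters and 5 of 35 members, among them Serpina3f, Serpina3g and Serpina3i. GAAANNGAA was found in 7.13% of promoters and 5 members, TGANTCA in 6.75% and 7 members, and TATAAA in 12.4% and 8 members. The TATAAA match stands 132 bases before the start in Serpina3c and 186 in Serpina3f, there read on the other strand. Whether either works as a TATA box was not tested. In Serpina3f the GAAANNGAA match, read on the other strand, overlaps the TTCNNNGAA match. A match says which letters are present and nothing of binding.

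Serpina3n, whose product inhibits granzyme B and neutrophil elastase in mice, was by far the most abundant copy. It was at 346, 253, 159.7, 209 and 206 FPKM in CKO and at 163, 151, 192, 154 and 179 FPKM in Flox libraries. CKO replicates 1, 2, 4 and 5 were above all Flox libraries, and CKO replicate 3 was among them. The mean was 235 ± 70.6 FPKM in CKO and 168 ± 17.7 FPKM in Flox (log2 fold change 0.44, SE 0.17, limma adjusted p = 0.275). Without CKO replicate 1 the log2 fold change was 0.29, and that of Serpina3c was 0.27.

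Serpina3m was at 16.5, 9.66, 4.23, 7.43 and 9.05 FPKM in CKO and at 4.60, 4.89, 7.24, 3.54 and 4.29 FPKM in Flox libraries, a 1.91-fold higher mean (log2 fold change 0.73, SE 0.28, limma adjusted p = 0.260). Again CKO replicate 3 was the one CKO library within the Flox range. Without CKO replicate 1 the log2 fold change of Serpina3m was 0.52. Serpina3f was at 7.15, 8.10, 11.1, 8.36 and 8.65 FPKM in CKO and at 4.32, 4.82, 6.85, 8.35 and 3.52 FPKM in Flox libraries, a 1.55-fold higher mean (log2 fold change 0.60, SE 0.19, 95% interval 0.18 to 1.01, limma adjusted p = 0.205). Flox replicate 4 was the one Flox library inside the CKO range. Serpina3i averaged 10.6 ± 1.63 FPKM in CKO and 8 ± 2.04 FPKM in Flox (log2 fold change 0.38, SE 0.15, limma adjusted p = 0.282), and Serpina3c 8.94 ± 2.92 FPKM in CKO and 6.33 ± 1.59 FPKM in Flox (log2 fold change 0.42, SE 0.20).

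Serpina3g, which in mouse lymphocytes inhibits lysosomal cathepsins, ordered the libraries in another way. It was at 21.0, 42.8, 61.1, 52.6 and 45.7 FPKM in CKO and at 33.4, 38.5, 45.9, 55.8 and 25.5 FPKM in Flox libraries. CKO replicate 1 was lowest for Serpina3g and highest for Serpina3n (Serpina3g log2 fold change 0.13, 95% interval -0.49 to 0.75, limma adjusted p = 0.879). The 10 Serpina3 genes summed to 418, 329, 254, 298 and 291 FPKM in CKO and to 218, 219, 270.07, 234 and 224 FPKM in Flox libraries, where CKO replicate 3 and Flox replicate 3 alone overlapped. Copies share sequence, so reads may have been split between them. Of 50-base windows, 19.1% in Serpina3m, 15.9% in Serpina3i, 15.5% in Serpina3g, 10.6% in Serpina3f, 6.9% in Serpina3n and 4.25% in Serpina3c occurred in another gene.

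A pair of gene lists was set beside the Serpina3 values. All 10 tested genes of a glucocorticoid-induced list had a positive log2 fold change (median 0.70). Limma called 0 of them, and 6 were higher at an unadjusted p under 0.05, against 4.78% of all genes. The list summed to 1592, 1137, 707, 809.5 and 767 FPKM in CKO and to 604, 554, 804, 641 and 525 FPKM in Flox libraries. CKO libraries ranked in the same order by this sum as by Serpina3n. Flox libraries did not, beyond replicate 3 being highest in both. Mt2 was the largest term of the sum and alone gave the CKO order, at 786, 573, 290, 352 and 316 FPKM. Fkbp5 and Per1, the genes of lowest p in the list, did not follow that order. Among CKO libraries they were lowest in replicate 2, at 38.0 and 13.5 FPKM. Of 18 interferon-induced genes, 4 had a positive and 14 a negative log2 fold change (median -0.15). Limma called 0 of them, and 0 were at an unadjusted p under 0.05. These genes summed to 87.1, 1927, 1864, 1328 and 779 FPKM in CKO and to 887, 1038, 1086, 1383 and 375 FPKM in Flox libraries. CKO replicate 1 had the lowest sum of all 10 libraries, and CKO replicates 2 and 3 had the highest. The negative signs therefore do not describe the CKO libraries as a group. Flox libraries ranked in the same order by this sum as by Serpina3g and Serpina3f, while CKO libraries ranked otherwise, with CKO replicate 2 highest by the sum and replicate 3 by both genes. CKO replicate 1 was lowest by all 3. The part of either list in the Serpina3 values was not tested. Liver-type RNA was hardly present. Serpina1a to Serpina1e, the copies of the alpha-1-antitrypsin gene, were at or under 0.58 FPKM in every library, and the hepatocyte markers summed to 3.42 to 4.27 FPKM in CKO and 2.75 to 4.30 FPKM in Flox.

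**Figure D4:**
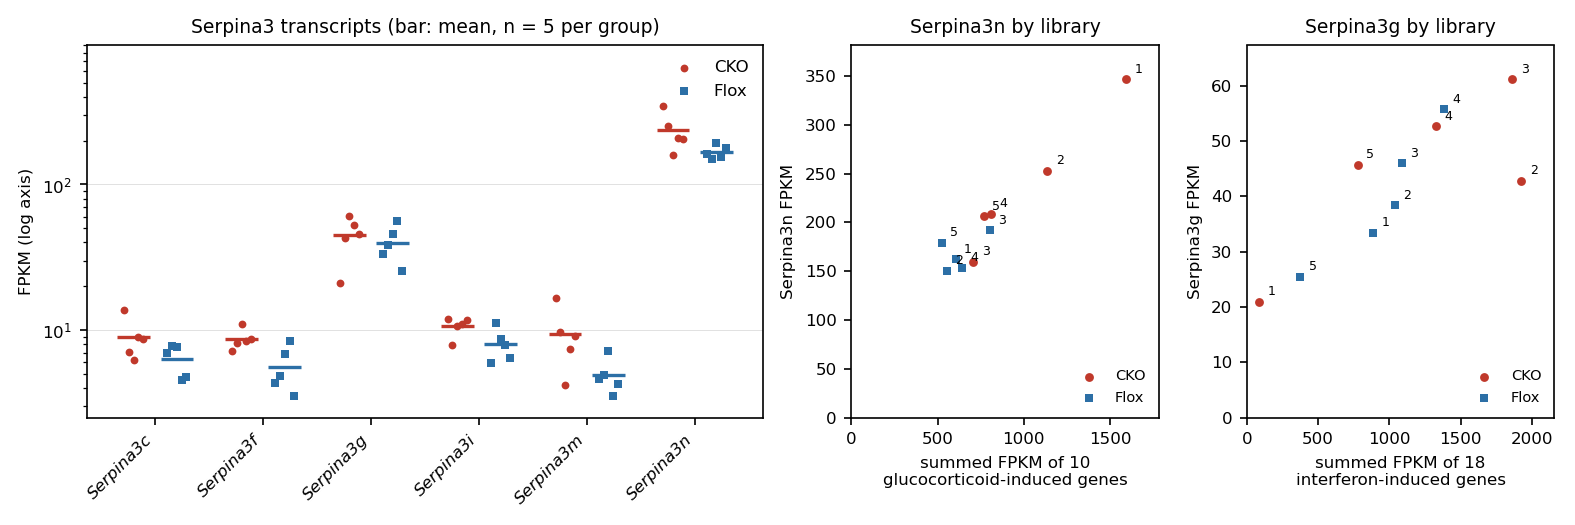
Left, FPKM of the tested Serpina3 genes in each library (log axis), CKO left of Flox, bars at the mean; middle and right, Serpina3n and Serpina3g FPKM against the summed FPKM of the glucocorticoid-induced and the interferon-induced genes, numbered by replicate. CKO replicate 1 is highest for Serpina3n, at 346 FPKM, and lowest for Serpina3g, at 21.0 FPKM.

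Among the Serpinb genes, Serpinb6d stood farthest from equal levels. Serpinb6d (Entrez 238568) belongs to a group of mouse copies of SERPINB6, an intracellular inhibitor of cathepsin G. It was at 0.46, 3.36, 9.39, 1.98 and 5.50 FPKM in CKO and at 20.7, 20.2, 6.94, 13.3 and 11.9 FPKM in Flox libraries. CKO replicate 3 was the one CKO library to reach the Flox range, above Flox replicate 3. The mean was 4.14 ± 3.47 FPKM in CKO and 14.6 ± 5.84 FPKM in Flox, 3.53-fold lower. The log2 fold change was -1.81 (SE 0.48, 95% interval -2.87 to -0.74), and it missed the threshold (limma adjusted p = 0.148). The basophil markers were lower in CKO as well. Of these 12 genes 11 had a negative log2 fold change (median -1.06). By limma 3 (Cd200r3, Itga2b and Gata2) were lower at adjusted p under 0.05, against 0.0607% of all genes. At an unadjusted p under 0.05, 10 of the markers were lower, against 10.3% of all genes. They summed to 364 to 486 FPKM in CKO and 575 to 695 FPKM in Flox libraries. The 6 tested eosinophil markers all had a negative log2 fold change too (median -0.57), and 4 were lower at an unadjusted p under 0.05. The 8 genes of that list summed to 23.9 to 49.6 FPKM in CKO and 33.9 to 69.05 FPKM in Flox libraries, with overlap. The part of either list in Serpinb6d was not tested. The other Serpinb6 copies named here were closer to equal. Serpinb6c averaged 18.7 ± 3.52 FPKM in CKO and 23.6 ± 4.42 FPKM in Flox (log2 fold change -0.32, SE 0.15, limma adjusted p = 0.358). Serpinb6a, the most abundant serpin, averaged 299.7 ± 21.9 FPKM in CKO and 299.6 ± 12.3 FPKM in Flox (log2 fold change -0.0019, 95% interval -0.14 to 0.13). Of its 50-base windows Serpinb6d shared 3.01% with other genes and Serpinb6c 9.92%.

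The other Serpinb genes differed less. Serpinb1a, whose product inhibits neutrophil elastase, cathepsin G and proteinase 3, averaged 55.4 ± 7.22 FPKM in CKO and 63.5 ± 5.43 FPKM in Flox (log2 fold change -0.20, SE 0.093, limma adjusted p = 0.345). Its targets come from neutrophils, whose 12 markers summed to 3709.5, 8522, 7752, 3792 and 4759.5 FPKM in CKO and to 2905, 3672, 4936, 4263 and 3265.5 FPKM in Flox. S100a8 and S100a9 made up most of these sums, at 4338 and 3527 FPKM in CKO replicate 2. Of 9 tested markers 8 had a positive log2 fold change (median 0.49) and 1, Cxcr2, a negative one (-0.08). Limma called 0 of them, and 3 were higher at an unadjusted p under 0.05, against 4.78% of all genes. The part of this list in Serpinb1a was not tested. Serpinb2, the urokinase inhibitor PAI-2, averaged 143 ± 19.6 FPKM in CKO and 129.8 ± 12.3 FPKM in Flox (log2 fold change 0.14, SE 0.096). Serpinb3a, a mouse counterpart of the human squamous cell carcinoma antigens, averaged 52.3 ± 14.3 FPKM in CKO and 59.7 ± 22 FPKM in Flox (log2 fold change -0.15, SE 0.24), and its log2 fold change lay between -0.295 and 0.0187 with each library left out in turn. It shared 15.0% of its windows with other genes. Serpinb5, the gene of maspin, averaged 75.6 ± 16.1 FPKM in CKO and 76.3 ± 11.4 FPKM in Flox (log2 fold change -0.03, SE 0.15). The 10 Serpinb genes that were not tested stayed at or under 1.99 FPKM.

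**Figure D5:**
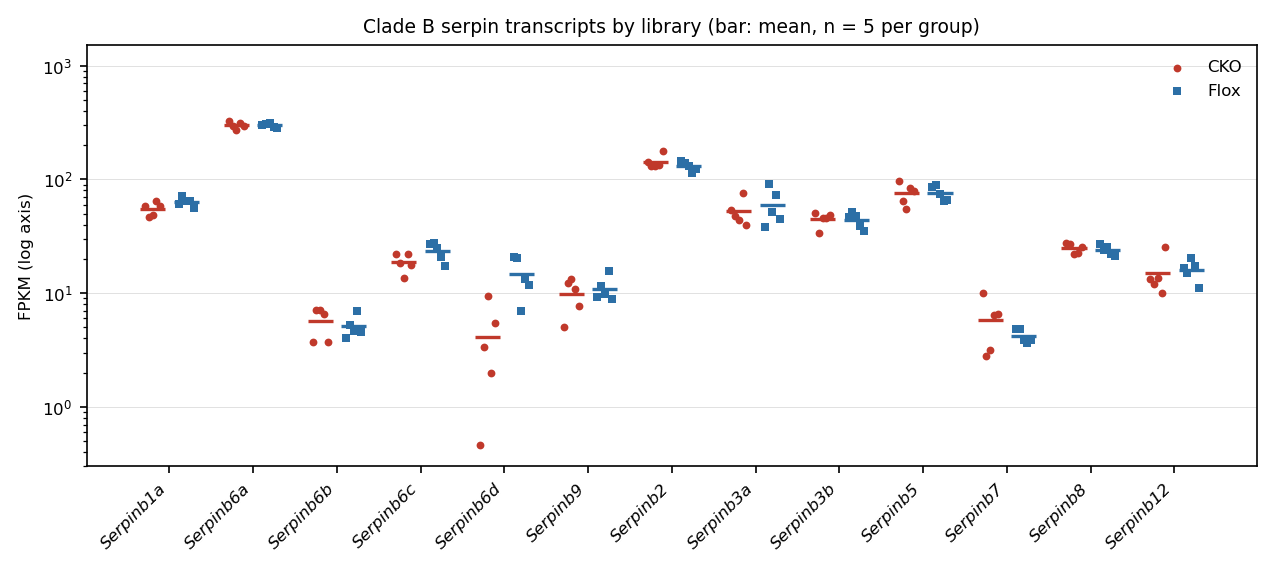
FPKM (log axis) of 13 of the 16 tested Serpinb genes in each library, CKO left of Flox, bars at the mean. Serpinb6d is spread most, at 0.46 to 9.39 FPKM in CKO and 6.94 to 20.7 FPKM in Flox, and Serpinb6a lies between 271 and 327 FPKM.

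Among the other serpins, those of blood vessels and matrix, none passed the test. Serpine2, the gene of protease nexin-1, an inhibitor of thrombin and urokinase, was at 42.3, 46.9, 47.4, 48.8 and 51.5 FPKM in CKO and at 52.7, 59.6, 45.7, 63.4 and 57.2 FPKM in Flox libraries. Flox replicate 3 alone fell within the CKO range (log2 fold change -0.22, SE 0.087, 95% interval -0.41 to -0.03, limma adjusted p = 0.272). Serping1, the gene of the C1 inhibitor of complement and the contact system, averaged 195 ± 23.1 FPKM in CKO and 170.04 ± 15.7 FPKM in Flox (log2 fold change 0.19, SE 0.089, limma adjusted p = 0.341), and its log2 fold change was 0.13 without CKO replicate 2. Serpinf1, the gene of the anti-angiogenic factor PEDF, averaged 125 ± 8.91 FPKM in CKO and 123 ± 16.7 FPKM in Flox.

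Serpinh1, the collagen chaperone gene, was at 73.0, 127, 155, 119 and 145 FPKM in CKO and at 141, 130.1, 125, 151 and 176 FPKM in Flox libraries, with CKO replicate 1 lowest (log2 fold change -0.26, 95% interval -0.66 to 0.15, limma adjusted p = 0.555). Without CKO replicate 1 the log2 fold change was -0.079. The 8 fibroblast markers were also lowest there, at a sum of 3659.7 FPKM, against 4706 to 5901 FPKM in the other CKO and 4702 to 6058 FPKM in the Flox libraries, and their part in Serpinh1 was not tested. Serpini1, the gene of neuroserpin, averaged 0.912 ± 0.175 FPKM in CKO and 0.962 ± 0.127 FPKM in Flox and was not tested. The liver-made coagulation inhibitors were nearly absent, with Serpinc1 (antithrombin) at or under 0.19 FPKM and Serpind1 (heparin cofactor II) at or under 0.45 FPKM.

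The targets and partners of these inhibitors were read from lists, none of which had a gene called by limma. At an unadjusted p under 0.05, 4.78% of all genes were higher and 10.3% lower in CKO. Of 16 tested epidermal proteases, 5 had a positive and 11 a negative log2 fold change (median -0.057), and at an unadjusted p under 0.05 were 0 higher and 1 lower. Prss8, the gene of prostasin, averaged 10.2 ± 1.72 FPKM in CKO and 13.3 ± 2.64 FPKM in Flox (log2 fold change -0.34, SE 0.14, limma adjusted p = 0.293), and St14, the gene of its activator matriptase, 11.6 ± 1.27 FPKM in CKO and 13.0 ± 1.17 FPKM in Flox. Of 8 leukocyte serine proteases, 4 were positive and 4 negative (median -0.047), with 0 higher and 3 lower at that p. Mcpt8, a protease that marks mouse basophils, averaged 26.9 ± 14.7 FPKM in CKO and 139 ± 17.6 FPKM in Flox with no overlap, and narrowly missed the threshold (log2 fold change -2.56, SE 0.41, limma adjusted p = 0.0507). Prss34, another basophil protease, averaged 2.64 ± 1.78 FPKM in CKO and 6.59 ± 1.92 FPKM in Flox, also with no overlap (log2 fold change -1.21, SE 0.37, limma adjusted p = 0.190). Ctsg, the gene of cathepsin G, averaged 1.37 ± 0.716 FPKM in CKO and 2.78 ± 0.944 FPKM in Flox (log2 fold change -0.69). Mcpt8 and Prss34 are also among the 12 basophil markers described beside Serpinb6d, and the part of that list's lower level in Ctsg was not tested.

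Of 10 plasma and fibrinolytic proteases, 4 were positive and 6 negative (median -0.013), with 2 higher and 1 lower at an unadjusted p under 0.05. Plaur, the urokinase receptor gene, averaged 52.3 ± 11.8 FPKM in CKO and 32.5 ± 6.77 FPKM in Flox (log2 fold change 0.67, SE 0.16, limma adjusted p = 0.132). Hgf, a growth factor built like a protease, averaged 17.5 ± 3.23 FPKM in CKO and 26.7 ± 1.98 FPKM in Flox with no overlap (log2 fold change -0.60, SE 0.12, limma adjusted p = 0.0832). Of 22 other protease inhibitors, 8 were positive and 14 negative (median -0.035), with 4 higher and 3 lower at that p. Cst6, the gene of the skin cystatin M/E, averaged 26.3 ± 4.32 FPKM in CKO and 42.5 ± 12.8 FPKM in Flox (log2 fold change -0.63, SE 0.19, limma adjusted p = 0.194), and Wfdc2 6.81 ± 0.586 FPKM in CKO and 4.88 ± 0.886 FPKM in Flox (log2 fold change 0.42, SE 0.098, limma adjusted p = 0.125). Of 14 substrates and receptors, 6 were positive and 8 negative (median -0.019), with 1 higher and 2 lower. The thrombin receptor gene F2r averaged 15.6 ± 2.46 FPKM in CKO and 20.7 ± 2.57 FPKM in Flox (log2 fold change -0.39, SE 0.12, limma adjusted p = 0.184). F2rl2, another receptor of that family, averaged 1.19 ± 0.259 FPKM in CKO and 2.03 ± 0.249 FPKM in Flox with no overlap (limma adjusted p = 0.0833).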

How the data were processed

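Poly(A) RNA of mouse skin was read as 50-base single-end reads, per the labels' protocols. The authors deposited 1 table of FPKM values for 19175 genes in 10 samples, 35 of them 0 throughout. HISAT was used for alignment, per the submitters' processing notes. Information on the counting tool, genome build, annotation, versions and reads shared by copies was not given in the sources used here. Without counts the depth is unknown and no counting interval is given.

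Groups came from the labels. limma-trend (limma 3.58.1, R 4.3.3, robust off) was run on log2(FPKM + 1) for the 13186 genes with 1 FPKM or more in 5 or more libraries, with Benjamini-Hochberg adjustment over all of them and a threshold of 0.05, and was checked on simulated data. Members and lists were chosen with earlier results of these data known.

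Named were, per family, the 4 tested members of lowest p and the 4 of highest mean, fixed members, members with an outlying library, and up to 3 genes per list. The values of 1 tested member are not reported here, but it is in every count. Klk1, Serpina3c, Mt2, S100a8, S100a9, Cxcr2 and the Klk8 ratios were chosen after their values were seen, as were the 5 promoters and their motifs. All 85 members matched the RefSeq gene table of GRCm38.p6 by Entrez ID. That table gives chromosomes and neighbours. Promoters were aligned with Biopython 1.88, and windows of 50 bases were counted in GENCODE M21 transcripts. Alternatives were a pseudocount of 0.1, no filter, equal totals, array quality weights, the replicate block and each library left out.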

Additional observations from a re-analysis of the deposited data

Results flagged for a closer look

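In 86 groups of 5 libraries, 1 per tested member and genotype, 6 held a library whose gap to its nearest neighbour was over 0.71 of the range of the group. Chance flags about 1 in 20 groups. All 6 were in CKO. Klk11 was at 31.03 FPKM in CKO replicate 1, against 17.6 to 20.55 in the other CKO libraries. Serpina9 was at 65.82 FPKM in the same library, against 44.1 to 48.74. Klk8 was at 123.19 FPKM in CKO replicate 4, against 153.53 to 163.6, which enters the Klk8 ratios of that library. In CKO replicate 5, Serpinb12 was at 25.57 FPKM, against 10.11 to 13.51, Serpinb2 at 177.29 FPKM, against 130.26 to 141.65, and Spink7 at 30.48 FPKM, against 2.8 to 7.56.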

How the results depend on the processing

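The 30 named members that were tested were refitted in 15 settings. Over all tested members, 42 or 43 by setting and 85 with no filter, 0 were called in either direction in every setting. At an unadjusted p under 0.05, 1 to 5 were higher and 1 to 7 lower with the filter. With no filter 6 of the 85 were higher and 7 lower. Of all genes, 1488 to 2143 of 13133 to 13186 were under that p with the filter, and 2464 of 19140 with none. The lowest limma adjusted p of a named member in any setting was 0.123, that of Serpinb6d without CKO replicate 3. Of 445 values of the named members, 408 kept their sign and 37, in 11 members near 0, did not. Klk13 had a log2 fold change of -0.000132 with equal library totals, and with array quality weights Klk13 was at -0.0992, Klk8 at -0.0764 and Spink12 at -0.222. With each library left out in turn, the log2 fold change was -0.0921 to 0.0818 for Klk13, -0.186 to 0.0103 for Klk14, -0.245 to 0.00696 for Klk5, -0.0498 to 0.0904 for Klk8, -0.221 to 0.16 for Serpina12, -0.0151 to 0.373 for Serpina3g, -0.295 to 0.0187 for Serpinb3a, -0.12 to 0.0767 for Serpinb5, -0.0336 to 0.0333 for Serpinb6a, -0.0194 to 0.0985 for Serpinf1 and -0.149 to 0.215 for Spink12. The cause was not tested. Over all genes, 6 were called higher and 8 lower. The counts were 5 and 7 with a pseudocount of 0.1, 1 and 2 with no filter, 1 and 1 with equal totals, 30 and 60 with array quality weights, and 0 to 11 and 0 to 15 with a library left out. With the replicate number as a block they were 0 and 0 by limma, with 1911 genes at an unadjusted p under 0.05. Same-numbered samples correlated at -0.210 to 0.212 in their deviations, so the numbers were not taken as pairs, and only replicate 5 correlated best with its own number. Without read counts, the precision of members under 1 FPKM is unknown.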
